A study of Mus musculus with 6 samples.

Results

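Metallothioneins and the genes that handle zinc in the cell were followed in the ectoderm of the mouse forelimb bud. The genes were chosen by symbol, and the choice was made on the measured FPKM difference between genotypes, with Mt2 among the largest rises. The set held 9 genes, the rows of the deposited table whose symbol was Mt1, Mt2, Mt3, Mtf1, Slc30a1, Slc30a4, Slc39a4, Slc39a6 or Slc39a10, of 49452 genes in all. The libraries came from 3 wild-type and 3 Sp8 null embryos at E10.5, with the ectoderm of both forelimbs of 1 embryo in each library. Wild-type embryos were from matings of C57BL/6 animals, and null embryos from matings of mice heterozygous for the Sp8-Cre-ERT2 allele, with C57BL6J given as the background strain of every sample. Loss of Sp8, a zinc finger transcription factor, and presence of the Cre-ERT2 insertion cannot be told apart in these groups. The type of mating, and with it mother and litter, also went with genotype and cannot be separated from it. No treatment with a Cre-ERT2 ligand is named in the labels. Values were in FPKM, fragments scaled to transcript length and to the mapped fragments of the library, a scale on which genes of different length can be compared.

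Metallothioneins are small, cysteine-rich proteins that bind zinc and copper and buffer the free metal in the cytosol. When zinc rises, the zinc finger factor MTF1 binds metal response elements (MREs) in the promoters of Mt1, Mt2 and Slc30a1 and drives their transcription. Zinc leaves the cytosol through carriers of the Slc30 family, which export it or load it into vesicles, and enters through carriers of the Slc39 family. Mt1 and Mt2 are also known to respond to oxidative stress, glucocorticoids and heat.

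Mt1, Mt2 and Mt3 lie side by side on chromosome 8 of GRCm38, and the stretches before the starts of these genes are shown because Mt1 and Mt2 were both higher in Sp8 null while their neighbour Mt3 was listed at 0 throughout. The 250 bases before the start annotated by RefSeq (GRCm38.p6, plus strand) run 5′ to 3′, at chr8:94178839-94179088 for Mt1, chr8:94172368-94172617 for Mt2 and chr8:94152357-94152606 for Mt3. Capitals mark matches to the MRE core, spelled TGCACNC or TGCGCNC on either strand.
Mt1: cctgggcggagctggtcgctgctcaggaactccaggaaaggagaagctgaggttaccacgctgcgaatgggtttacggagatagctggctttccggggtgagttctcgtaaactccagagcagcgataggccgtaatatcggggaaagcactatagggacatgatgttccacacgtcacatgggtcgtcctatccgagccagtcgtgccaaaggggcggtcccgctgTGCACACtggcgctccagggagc
Mt2: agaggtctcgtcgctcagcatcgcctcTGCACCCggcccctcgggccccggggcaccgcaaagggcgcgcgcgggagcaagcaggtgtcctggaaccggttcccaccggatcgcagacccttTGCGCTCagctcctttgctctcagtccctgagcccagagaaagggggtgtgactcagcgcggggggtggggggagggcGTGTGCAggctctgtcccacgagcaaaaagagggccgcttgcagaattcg
Mt3: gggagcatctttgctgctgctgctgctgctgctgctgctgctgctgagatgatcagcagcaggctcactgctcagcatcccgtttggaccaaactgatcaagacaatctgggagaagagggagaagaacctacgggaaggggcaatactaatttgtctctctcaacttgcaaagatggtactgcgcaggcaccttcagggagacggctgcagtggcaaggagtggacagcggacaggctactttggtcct

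Before the start, Mt2 held 3 MRE matches, Mt1 held 1 and Mt3 held 0. Of 32851 promoters in the RefSeq table, 21.4% held at least 1 match in the same 250 bases, 5.17% at least 2 and 1.26% at least 3. In the whole window of 300 bases, which adds 50 bases after the start, there were 4 matches in Mt2, 3 in Mt1 and 1 in Mt3, and 1.97% of all promoters held at least 3. The Mt1 matches after the start were at 3 to 9 and 21 to 27 bases from it. Counts before the start thus depend on where it is annotated, and bases beyond the window were not searched. The zinc exporters also held matches in the 250 bases, 2 in Slc30a4 and 1 in Slc30a1, while Mtf1 and both annotated starts of Slc39a10 held 0. The antioxidant response element core, TGACNNNGC, matched 1 time in Mt2 and 1 time in Slc30a1, against at least 1 match in 10.2% of promoters. The GC box GGGCGG is a motif bound by factors of the Sp family. It matched 2 times in Mt1, 3 times in Slc30a4, 5 times in Slc30a1, 1 time in Mtf1 and 0 times in Mt2 and Mt3. Of all promoters, 32.7% held at least 1 GC box, 16.7% at least 2 and 8.47% at least 3. The Slc30a4 matches at -14 to -9 and at -10 to -5 overlapped each other. These motifs can overlap one another, both strands were searched for each, and 7 of the 9 genes had an entry in the table, the others being Slc39a4 and Slc39a6.

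**Figure D1:**
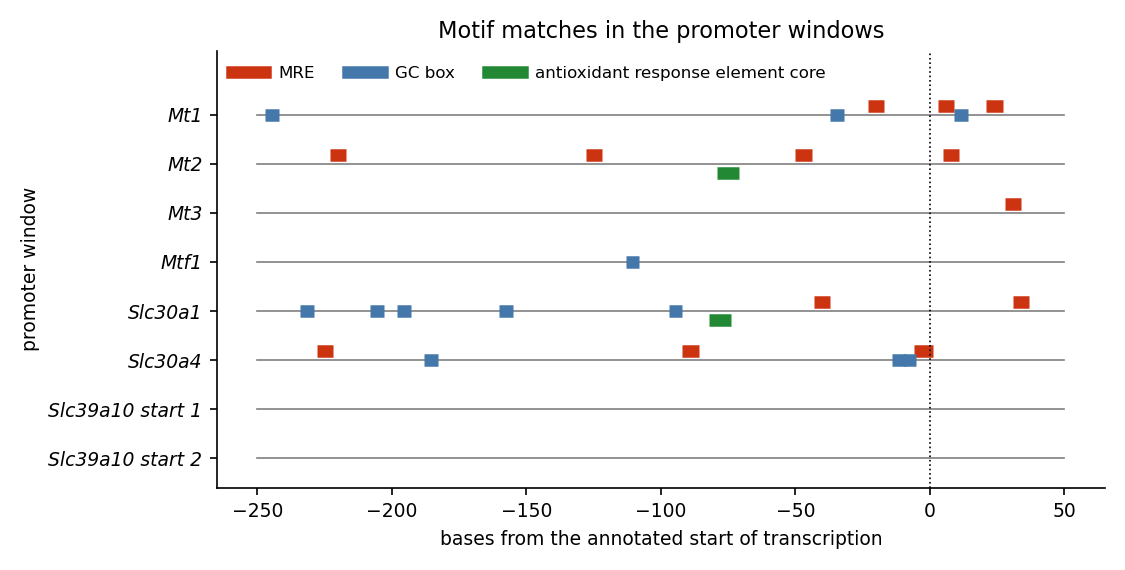
Matches to 3 motifs in the promoter window of each gene with a RefSeq entry, by distance in bases from the annotated start (dotted line; Slc39a10 has 2 annotated starts). Mt2 carries 4 MRE matches over its window and Mt1 carries 3, with those of Mt1 close to the start.

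Since the members were selected on the FPKM difference between wild type and Sp8 null, their differences are described and carry no test of their own. Metallothionein transcripts were higher in Sp8 null and the vesicular zinc exporter Slc30a4 was lower, while the metal sensor Mtf1, the plasma membrane exporter Slc30a1 and the importer Slc39a6 had overlapping libraries in the 2 genotypes. Of the 9 genes, 7 reached 1 FPKM in at least 3 libraries and entered the fit of all 12133 such genes. Of these 7, 3 passed an adjusted p of 0.05 in limma, Mt1 and Mt2 being higher and Slc30a4 lower. Of all tested genes 6.83% passed, 1.68% higher and 5.15% lower, and nothing is read from the members' count because that contrast helped to choose them.

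**Figure D2:**
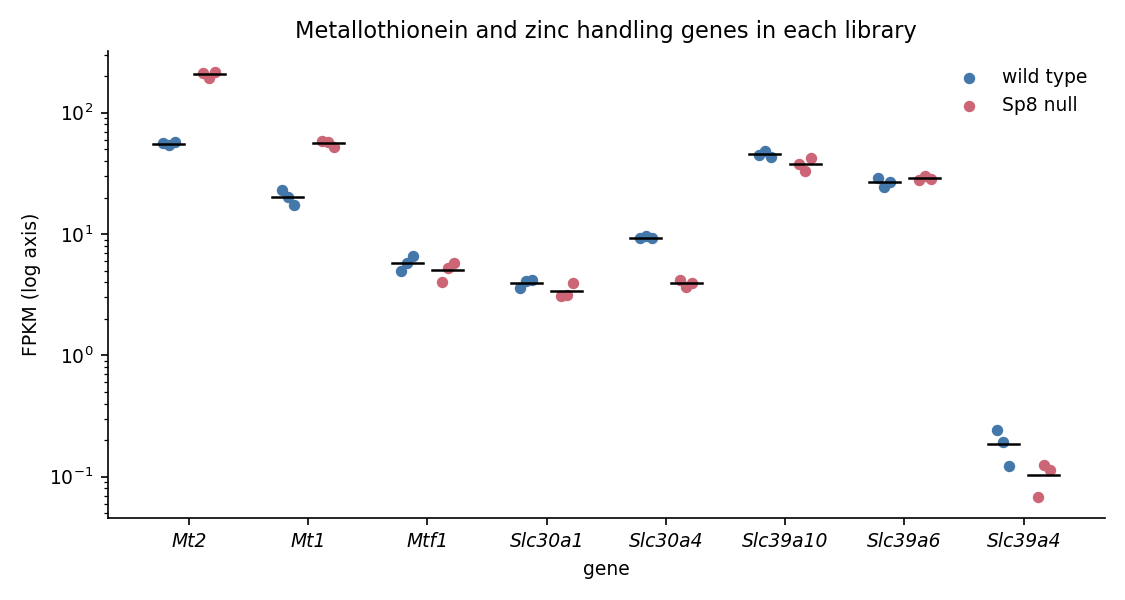
FPKM of each gene in each library on a log axis, with wild type in blue, Sp8 null in red and the group mean as a bar. The libraries of the genotypes are apart for Mt2, Mt1, Slc30a4 and Slc39a10, and Mt3, listed at 0 in every library, is left out.

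Mt2 (ENSMUSG00000031762; GRCm38, chromosome 8, 94172664 to 94173568, plus strand, protein-coding) encodes one of the 2 metallothioneins that most mouse tissues make. It was at 55.8, 54.5 and 56.9 FPKM in wild-type embryos 1, 2 and 3, and at 214, 193 and 217 FPKM in Sp8 null embryos 1, 2 and 3. Every null library was above every wild-type library, and the lowest null value was more than 3 times the highest wild-type value. The means were 55.7 ± 1.22 FPKM in wild type and 208 ± 13.1 FPKM in Sp8 null (SD, n = 3 each), a ratio of 3.72 and a log2 fold change of 1.88 (SE 0.07) on the log2(FPKM + 1) scale. By mean level Mt2 was at rank 910 of 12133 tested genes in wild type and at rank 189 in Sp8 null.

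Mt1 (ENSMUSG00000031765; chromosome 8, 94179082 to 94180327, plus strand, protein-coding) starts 5.51 kb after the end of Mt2 and encodes the other widely made metallothionein. Its FPKM was 23.2, 20.1 and 17.4 in wild-type embryos 1, 2 and 3 and 58.8, 57.3 and 52.5 in Sp8 null embryos 1, 2 and 3. The groups did not overlap. The means were 20.2 ± 2.91 FPKM in wild type and 56.2 ± 3.30 FPKM in Sp8 null (SD, n = 3 each), a ratio of 2.78 and a log2 fold change of 1.44 (SE 0.11). Its rank by mean level was 2764 in wild type and 813 in Sp8 null.

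Mt2 exceeded Mt1 in every library. The ratio of Mt2 to Mt1 FPKM was 2.41, 2.71 and 3.28 in wild-type embryos 1, 2 and 3, and 3.63, 3.36 and 4.13 in Sp8 null embryos 1, 2 and 3. The ratio was thus higher in each null library than in any wild-type library. The summed level of both genes was 79.0, 74.6 and 74.3 FPKM in wild type and 272, 250 and 269 FPKM in Sp8 null.

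The coding sequences of Mt1 and Mt2 are shown because these genes are near copies whose reads could be confused. They are taken from 1 GENCODE M21 transcript of each gene, run 5′ to 3′ from the start codon without the stop codon, and have the bases that differ in capitals.
Mt1: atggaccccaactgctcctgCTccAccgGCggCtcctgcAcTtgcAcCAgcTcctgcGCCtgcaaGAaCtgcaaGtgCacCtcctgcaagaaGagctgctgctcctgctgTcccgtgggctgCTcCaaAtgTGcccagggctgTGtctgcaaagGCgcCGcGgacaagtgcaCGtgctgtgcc
Mt2: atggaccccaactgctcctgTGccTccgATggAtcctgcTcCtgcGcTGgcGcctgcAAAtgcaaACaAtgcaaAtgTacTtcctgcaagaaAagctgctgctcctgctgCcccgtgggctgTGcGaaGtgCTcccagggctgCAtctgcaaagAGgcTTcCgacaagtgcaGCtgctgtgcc
They differ at 38 of 183 bases, an identity of 79.2%, and the longest stretch that both transcripts share is 20 bases. The transcripts are short, 549 and 511 bases, and FPKM of short transcripts depends on the fragment length assumed.

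Mt2 carries a further limit, since 73.5% of its exonic bases lie within the exon of the antisense gene Gm45774, and without strand the reads of the 2 genes cannot be told apart. Gm45774 itself was listed at 0.0948 to 0.138 FPKM in wild type and at 0.135 to 0.270 FPKM in Sp8 null. In the authors' deposited table, whose means are on a scale of read counts, Mt2 had a mean of 51.26 in wild type and 180.53 in Sp8 null, and Mt1 had 291.39 and 827.25. The order of the genes was thus the reverse of that in FPKM, while both were higher in Sp8 null, with fold changes of 2.78 for Mt2 and 2.68 for Mt1 in the authors' deposited table. The ratios of those deposited means are 3.52 and 2.84, and how the authors' fold changes were made is not given in the sources used here. How the deposited means treated reads in the overlap was not tested. No exon of Mt1 overlapped another gene.

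Mt3 (chromosome 8, 94152607 to 94154146), the metallothionein known from brain, ends 18.52 kb before Mt2 and was listed at 0 FPKM in all 6 libraries. Mt4, the fourth gene of the cluster and known from stratified epithelium, was also listed at 0 in all 6.

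Mtf1 (chromosome 4, 124802104 to 124849800, plus strand), the zinc sensor that acts on metallothionein promoters, was at 4.99, 5.72 and 6.55 FPKM in wild type and at 4.05, 5.26 and 5.79 FPKM in Sp8 null, each in the order of embryos 1, 2 and 3. The groups overlapped. Its means were 5.75 ± 0.781 and 5.03 ± 0.894 FPKM (SD, n = 3 each; log2 fold change -0.17, SE 0.14). In the authors' deposited table its signed fold was -1.01.

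Of the exporters, Slc30a4 (chromosome 2, 122681233 to 122702663, minus strand), which loads zinc into vesicles and is known for zinc secretion into milk, differed most. Slc30a4 was at 9.21, 9.62 and 9.22 FPKM in wild-type embryos 1, 2 and 3 and at 4.21, 3.64 and 3.96 FPKM in Sp8 null embryos 1, 2 and 3. The highest null library was below the lowest wild-type library. The means were 9.35 ± 0.235 and 3.94 ± 0.288 FPKM (SD, n = 3 each), a ratio of wild type to Sp8 null of 2.38 and a log2 fold change of -1.07 (SE 0.08). In the authors' deposited table its signed fold was -2.23.

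Slc30a1 (chromosome 1, 191906767 to 191913247, plus strand) exports zinc across the plasma membrane and is a known target of MTF1. It was at 3.61, 4.09 and 4.20 FPKM in wild type and at 3.10, 3.16 and 3.92 FPKM in Sp8 null, again by embryo number. The groups overlapped, with means of 3.97 ± 0.309 and 3.40 ± 0.457 FPKM (SD, n = 3 each; log2 fold change -0.18, SE 0.11). The activity of MTF1 is not measured by these transcript levels, and its part in the levels of Mt1 and Mt2 was not tested.

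The importer Slc39a10 (chromosome 1, 46807544 to 46892852, minus strand), which brings zinc in at the plasma membrane and is known to be repressed through MTF1, was the most abundant zinc carrier. Its FPKM was 45.0, 48.0 and 43.5 in wild type and 37.5, 33.0 and 42.0 in Sp8 null, by embryo number. Every null library was lower than every wild-type library, though Sp8 null embryo 3 was close to wild-type embryo 3. The means were 45.5 ± 2.30 and 37.5 ± 4.50 FPKM (SD, n = 3 each; log2 fold change -0.28, SE 0.10). Counting this gene, 4 of the 7 tested members had groups that did not overlap. Over all tested genes the share was 29.8%, and nothing is read from the members' count, since these values helped to choose them.

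Slc39a6, on chromosome 18, is a close relative of Slc39a10 and is known for a part in cell movement and epithelial-mesenchymal transition. It was at 29.0, 24.2 and 26.7 FPKM in wild type and at 27.9, 30.3 and 28.2 FPKM in Sp8 null, by embryo number. The groups overlapped, with means of 26.6 ± 2.37 and 28.8 ± 1.29 FPKM (SD, n = 3 each; log2 fold change 0.11, SE 0.08). Slc39a4 (chromosome 15, 76612383 to 76617384, minus strand), the importer of dietary zinc in gut, did not reach the filter. It was at 0.243, 0.194 and 0.123 FPKM in wild type and at 0.0686, 0.126 and 0.113 FPKM in Sp8 null, and the groups overlapped.

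By level per length, the order in wild type was Mt2, Slc39a10, Slc39a6, Mt1, Slc30a4, Mtf1, Slc30a1, Slc39a4 and Mt3. No neighbours in that order had overlapping libraries, but the place of Mt2 is uncertain, since its mean in the authors' deposited table was below that of Mt1 for transcripts of similar length. In Sp8 null, Mt1 stood above Slc39a10 and Slc39a6, in second place after Mt2. Slc30a4 (3.64 to 4.21 FPKM) overlapped there with Mtf1 (4.05 to 5.79 FPKM) and with Slc30a1 (3.10 to 3.92 FPKM), so the order of these 3 is not resolved, and Slc39a4 and Mt3 stood below them. In wild type Slc30a4 had been apart from both.

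The other zinc carriers, all members of the Slc30 and Slc39 families outside the set, were tested to see whether the differences extended to them. Of 8 other exporters 4 were tested and 0 passed (limma, adjusted p under 0.05), although 2 of them, Slc30a5 and Slc30a7, had an unadjusted p under 0.05. Each of the 4 was lower on average in null libraries, under each scaling tried, with a median log2 fold change of -0.23 against -0.06 over all tested genes. In the authors' deposited table Slc30a7 was not lower, with means of 1017.89 in wild type and 1035.58 in Sp8 null. The other exporters tested were lower there too. Slc30a9, the most abundant of them, was at 22.0 ± 2.60 FPKM in wild type and 19.7 ± 1.79 FPKM in Sp8 null (n = 3, SD), with a limma adjusted p = 0.459 at a log2 fold change of -0.15. Slc30a5, which supplies zinc to enzymes of the secretory pathway, had the smallest p (limma adjusted p = 0.0812 at a log2 fold change of -0.38).

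Of 11 other importers 7 were tested and 2 fell in Sp8 null, against 5.15% of tested genes called lower. Slc39a14, a carrier of zinc, manganese and iron at the plasma membrane, was at 7.74, 7.91 and 7.25 FPKM in wild-type embryos 1, 2 and 3 and at 2.04, 1.70 and 1.87 FPKM in Sp8 null embryos 1, 2 and 3. The groups were far apart, with means of 7.64 ± 0.341 and 1.87 ± 0.169 FPKM (n = 3, SD) and a log2 fold change of -1.59 (SE 0.09). The limma adjusted p was 0.000152, and ran from 0.00014 to 0.00556 over the alternatives that tested it. Slc39a14 was thus lower in 3 of 3 null libraries and fell further on this scale than the member Slc30a4 did, a difference between genes that was not tested.

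Slc39a11 was at 1.85, 2.45 and 1.77 FPKM in wild type and at 1.21, 0.648 and 0.856 FPKM in Sp8 null, by embryo number, and fell by 0.67 on the log2 scale (SE 0.15; limma adjusted p = 0.0435). It passed narrowly, and its adjusted p was 0.05 or more in 14 of 15 alternatives, those that left out any 1 library included (limma adjusted p from 0.0534 to 0.146 there). Slc39a7, which releases zinc from the endoplasmic reticulum and was the most abundant of the other importers, was at 11.5 ± 1.52 and 10.2 ± 0.303 FPKM (SD, n = 3 each; limma adjusted p = 0.422). The 7 importers had a median log2 fold change of -0.15, with 6 lower, but 4 lower under upper-quartile scaling. The 8 carriers of both families below the filter included Slc30a8 and Slc39a12, listed at 0 in every library, and Trpm7, a channel that passes zinc, had a limma adjusted p = 0.882 at a log2 fold change of -0.05, a sign that turned under both other scalings.

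**Figure D3:**
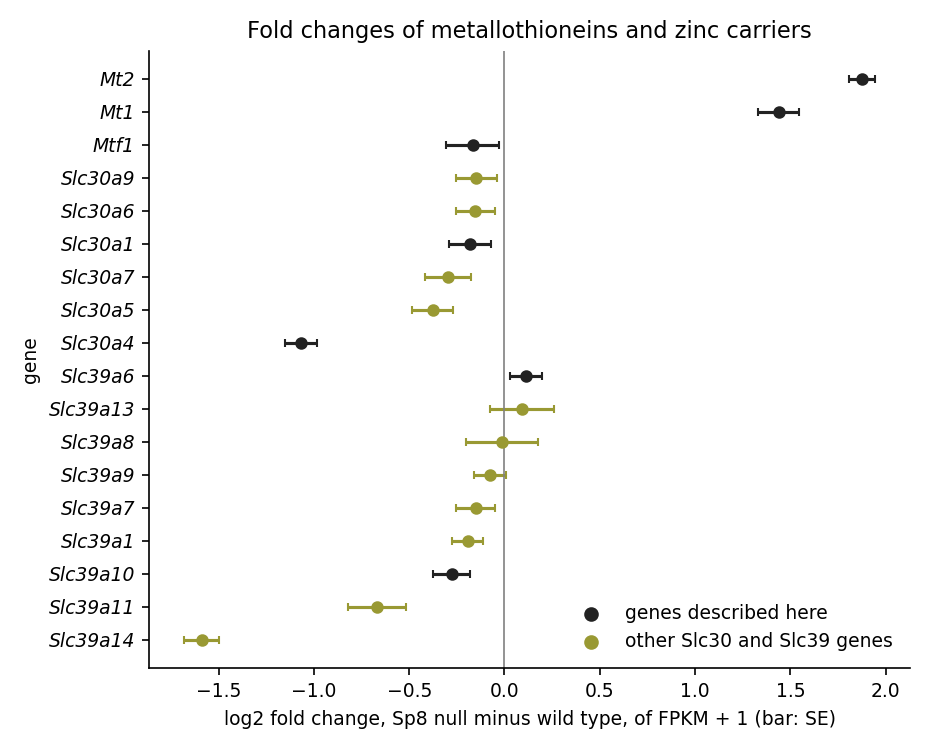
Log2 fold change of FPKM + 1, Sp8 null minus wild type, for the tested members (black) and the other tested Slc30 and Slc39 genes (olive), with the SE as a bar. Mt2 and Mt1 stand at 1.88 and 1.44, and Slc39a14 and Slc30a4 at -1.59 and -1.07.

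Genes near the cluster were examined to see whether the difference was shared along the chromosome. Of 10 neighbours with a row, between 34.2 and 352.7 kb from the cluster, 8 were tested and 1 was called, against 6.83% of tested genes. In limma 3 of the 8 had an unadjusted p under 0.05, Bbs2 and Gnao1 being higher in Sp8 null and Cpne2 lower. Nup93, the nearest on the Mt1 side, was at 21.2 ± 1.67 FPKM in wild type and 19.4 ± 2.07 FPKM in Sp8 null, and Bbs2, the nearest on the other side at 38.3 kb, at 5.85 ± 0.873 and 7.95 ± 0.650 FPKM (SD, n = 3 each; limma adjusted p = 0.489 and 0.0898). The called gene, Cpne2, was the farthest and fell, being at 3.99 ± 0.531 FPKM in wild type and 1.81 ± 0.144 FPKM in null (n = 3, SD), a log2 fold change of -0.82 (SE 0.11) with a limma adjusted p = 0.00713. That call was lost without Sp8 null embryo 2 and wild-type embryo 1 together (limma adjusted p = 0.0521). Between the metallothioneins and these neighbours the log2 fold changes of the 8 ran from -0.82 to 0.45, below those of Mt1 and Mt2.

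Lists of genes that respond to the stimuli known to act on metallothionein promoters were then read beside them, with 46 of 55 genes tested and 4 called, 8.70%, against 6.83% of all tested genes. In the list of 10 NRF2 and oxidative stress genes, 3 of 7 tested members fell and none rose, with a median log2 fold change of -0.31. Of all tested genes 5.15% were called lower. All 7 had an unadjusted p under 0.05 in limma, 6 with a lower mean and Hmox1 with a higher one. Slc7a11, the cystine importer, was at 10.53, 13.4 and 10.2 FPKM in wild type and at 6.54, 5.13 and 6.15 FPKM in Sp8 null, by embryo number, and fell by 0.83 on the log2 scale (SE 0.13; limma adjusted p = 0.0115). Gclm, a subunit of the enzyme that starts glutathione synthesis, was at 7.86 ± 0.853 and 5.01 ± 0.380 FPKM (limma adjusted p = 0.0217 at a log2 fold change of -0.56), and Txnrd1, thioredoxin reductase, at 601 ± 93.3 and 416 ± 11.2 FPKM (limma adjusted p = 0.0414 at -0.52), with SD and n = 3 in each group.

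These calls were less firm than that of Slc39a14. That of Slc7a11 was kept whichever 1 library was left out, though not without Sp8 null embryo 2 and wild-type embryo 1 together (limma adjusted p = 0.0554), while that of Gclm was lost without Sp8 null embryo 2 or 3 or wild-type embryo 2 or 3 (limma adjusted p from 0.0583 to 0.0944), and that of Txnrd1 without any 1 library but wild-type embryo 3 (0.0774 to 0.147). Heme oxygenase, Hmox1, which is induced by metals and oxidants, was at 2.48 ± 0.591 FPKM in wild type and 3.29 ± 0.187 FPKM in Sp8 null (SD, n = 3 each; limma adjusted p = 0.207). The part of oxidative stress in the levels of Mt1 and Mt2 was not tested.

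None of 5 tested MTF1-linked genes passed, and Ndrg1 had the smallest p among them (limma adjusted p = 0.106 at a log2 fold change of -0.55), the 1 gene of the list with an unadjusted p under 0.05. Copper handling genes gave 0 calls of 10, 3 with an unadjusted p under 0.05, with Sod1, the copper-zinc superoxide dismutase, at 400 ± 2.64 and 341 ± 7.51 FPKM (n = 3, SD), a log2 fold change of -0.23 with a limma adjusted p = 0.0592. Iron handling genes gave 0 of 9, 4 under 0.05 before adjustment, with the transferrin receptor Tfrc at a log2 fold change of -0.60 (limma adjusted p = 0.0794). The glucocorticoid list gave 0 of 8, 4 under 0.05 before adjustment, and a median of -0.07, with the receptor Nr3c1 at -0.46 (limma adjusted p = 0.0838). Under median-of-ratios and upper-quartile scaling 1 gene of this list was called, and called higher, namely Errfi1, an inhibitor of EGF receptor signalling. Errfi1 was at 30.6, 33.6 and 30.4 FPKM in wild type and at 39.7, 35.6 and 47.1 FPKM in Sp8 null, by embryo number, with a limma adjusted p = 0.0975 unscaled, 0.0436 under median-of-ratios and 0.0293 under upper-quartile scaling. Of 7 tested heat shock genes 1 fell, the mitochondrial co-chaperone Hspe1 (limma adjusted p = 0.0204 at a log2 fold change of -0.45). That call was lost without Sp8 null embryo 1 or without any 1 wild-type library (limma adjusted p from 0.0537 to 0.0944). All 7 had a lower mean, and 4 had an unadjusted p under 0.05. The lists' counts of unadjusted p under 0.05 were not set against all tested genes, and nothing is read from them. The inducible Hspa1a and Hspa1b stayed under 0.310 FPKM in every library.

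**Figure D4:**
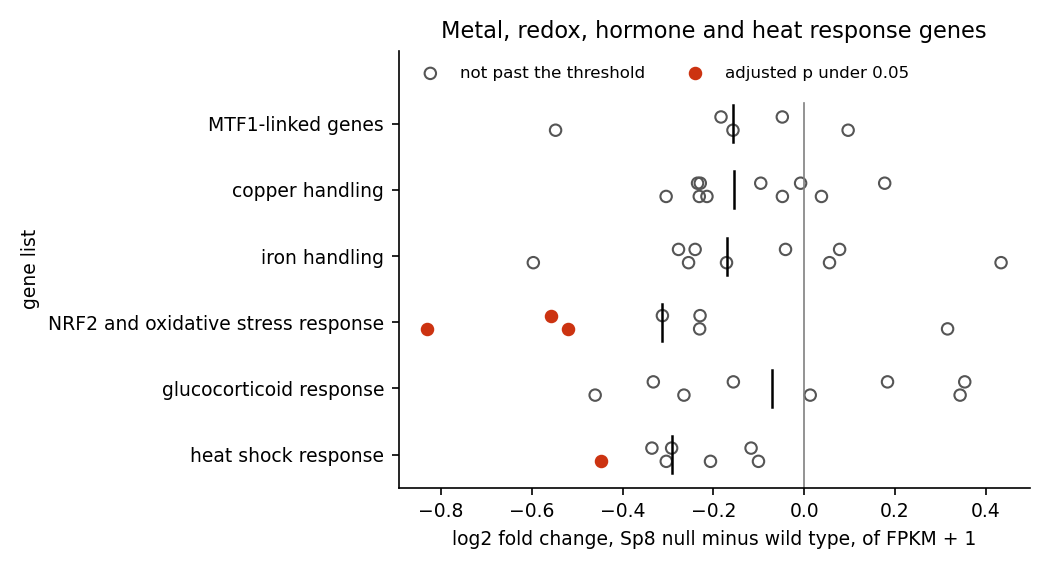
Log2 fold change of FPKM + 1, Sp8 null minus wild type, for each tested gene of 6 lists, with calls filled in red and the list's median as a bar. The 4 genes called without rescaling, Slc7a11, Gclm, Txnrd1 and Hspe1, are lower, and the list medians run from -0.31 to -0.07.

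Libraries differed in the markers of other cell types they held, and the metallothionein levels are set beside these. Markers of surface ectoderm summed to 551 to 592 FPKM in wild type and 462 to 561 FPKM in Sp8 null, with all 10 past the filter. Limb mesenchyme markers, 8 of 10 past the filter, summed to 36.1 to 72.6 FPKM in wild type, and to 53.6, 176 and 48.3 FPKM in Sp8 null embryos 1, 2 and 3. Of the 8 tested, 6 averaged higher in null libraries and 1 rose, and the median over the list was 0.98 on the log2 scale. That was Lmx1b, a homeodomain factor of dorsal limb mesenchyme, at 7.34, 5.16 and 5.35 FPKM in wild type and 11.9, 17.7 and 11.5 FPKM in Sp8 null (log2 fold change 1.07, limma adjusted p = 0.0166). Its adjusted p was 0.00761 without wild-type embryo 1 and Sp8 null embryo 2, and 0.0705 and 0.0563 without wild-type embryo 2 or 3. The groups also did not overlap for Col3a1, a fibrillar collagen at 2.19 to 7.43 FPKM in wild type and 7.61 to 34.4 FPKM in Sp8 null, nor for Pdgfra, a growth factor receptor, which was lower at 6.01 to 19.5 FPKM against 19.8 to 23.8 FPKM in wild type. Of the 8 tested, 3 thus had groups that did not overlap, against 29.8% of all tested genes, and 1 was called, against 6.83%. Some mesenchymal markers differed with genotype as well as in single libraries. The part of surface ectoderm or mesenchymal markers in the differences of Mt1, Mt2, Slc30a4 and Slc39a14 was not tested. Erythroid markers, 5 of 7 past the filter, summed to 422, 36.4 and 11.7 FPKM in wild-type embryos 1, 2 and 3 and to 62.0 to 162 FPKM in Sp8 null. Macrophage and endothelial markers, 1 of 7 past the filter in each, summed to at most 3.21 and 4.38 FPKM. The 6 markers of yolk sac endoderm and liver, tissues rich in metallothionein, were at most 0.185 FPKM in any library.

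Mt1 and Mt2 together were at 250 FPKM in Sp8 null embryo 2, the library with the most mesenchymal marker RNA, and at 272 and 269 FPKM in the other null libraries. Without that library and wild-type embryo 1 the log2 fold changes were 1.93 for Mt2, 1.52 for Mt1, -1.04 for Slc30a4 and -1.54 for Slc39a14. Of the tested mesenchyme markers, Lmx1b, Col3a1, Prrx1, Twist1, Tbx5 and Meox2 were higher in each remaining null library than in either remaining wild-type library. Prrx2 and Pdgfra were lower in each. Sample names began with 4 in wild-type embryo 1 and Sp8 null embryo 1, and with 5 in the rest. Within the pair named 4 the log2 difference was 1.92 for Mt2, 1.31 for Mt1 and -0.97 for Slc30a4, and among those named 5 it was 1.86, 1.5 and -1.12. In bulk ectoderm, more RNA per cell and more cells that make it cannot be told apart.

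**Figure D5:**
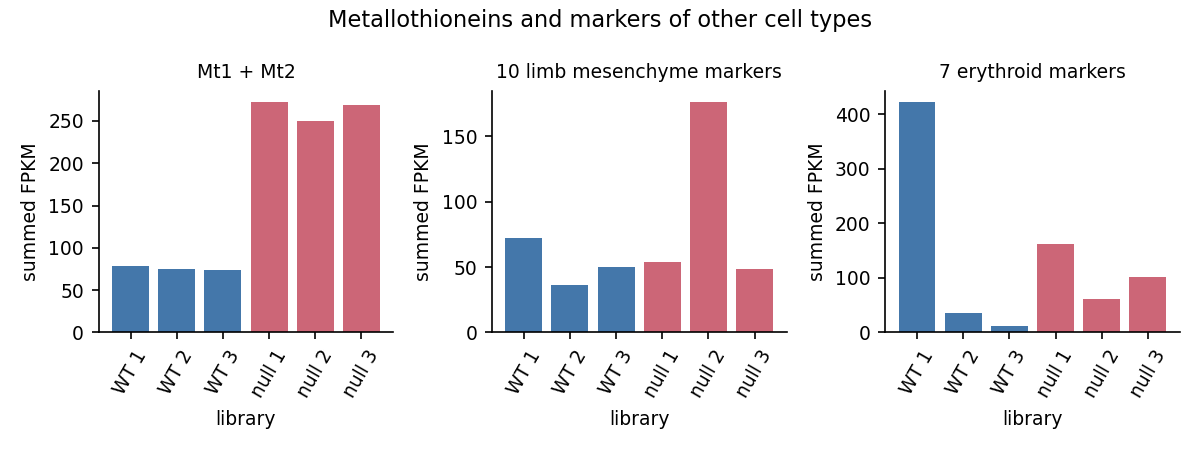
Summed FPKM in each library (WT, wild type; null, Sp8 null) of Mt1 and Mt2, of 10 limb mesenchyme markers and of 7 erythroid markers. The metallothionein sum lies between 74.3 and 79.0 FPKM in wild type and between 250 and 272 FPKM in Sp8 null, while the mesenchyme sum is highest in Sp8 null embryo 2 and the erythroid sum in wild-type embryo 1.

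Genes whose pattern over the 6 libraries lay closest to those of Mt1 and Mt2 were found by the root-mean-square distance of log2(FPKM + 1), centred on the wild-type mean. Nearest to Mt2 were Pthlh (0.205), Irx2 (0.212), Gm23034 (0.300), Edn3 (0.310) and Gm20554 (0.312). Nearest to Mt1 were Cxcl14 (0.107), Irx4 (0.111), Gm20554 (0.128), Slc8a3 (0.135) and Adamts17 (0.142). Cxcl14, a chemokine of epithelia, went from 29.0, 20.2 and 21.4 FPKM in wild type to 66.3, 63.6 and 64.2 FPKM in Sp8 null, by embryo number. The distance between Mt1 and Mt2 was 0.344, which gave Mt1 rank 7 from Mt2 and Mt2 rank 30 from Mt1, so on this scale each metallothionein had closer matches than the other. The scale understates fold changes of low genes. The ratio of Sp8 null to wild-type mean was 6.55 for Pthlh, 3.27 for Irx2, 3.21 for Edn3 and 3.72 for Gm20554. That of Mt2 was 3.72, and Gm23034 was at 0 FPKM in every wild-type library. Distances also hold the genotype difference that helped to choose the members.

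As a check of the labels, Sp8 was at 8.35 to 13.5 FPKM in wild type and 0.460 to 1.14 FPKM in Sp8 null. Depth was known relative to wild-type embryo 1, and ranged from 0.843 in Sp8 null embryo 1 to 1.03 in wild-type embryo 3, with 11835 to 12245 genes at 1 FPKM or more. In all, 829 of 12133 genes were called, 204 higher and 625 lower, so 24.6% of calls were higher, a share of 37.2% under median-of-ratios and 41.7% under upper-quartile scaling.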

How the data were processed

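RNA-seq values for 3 Sp8 null and 3 wild-type forelimb ectoderms were taken from 1 table. Per the file headers, the authors deposited FPKM per library on gene models of Ensembl build 87. FastQC, SAMtools, TopHat2, Cufflinks, DESeq2 and GRCm38 are named in the submitters' processing notes, with no role given. Whether counting used strand, or libraries were rescaled, is not given in the sources used here. The deposited table also held a mean signal per group on a scale of read counts, a signed fold change score and a p-value of an unstated test, which was not used. Its control mean was read as wild type and its sample mean as Sp8 null.

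The members and gene lists were chosen with earlier results of these data known. Genes at 1 FPKM or more in at least 3 libraries (12133) were fitted as log2(FPKM + 1) with genotype in limma 3.58.1 (R 4.3.3, trended empirical Bayes, two-sided, Benjamini-Hochberg over all 12133), and genes with an adjusted p under 0.05 are called. Fold changes on this scale understate those of low genes. The fit was tested on simulated data. Embryos are separate animals. Named genes were the members, called carriers and the most abundant carrier of each family, called list genes or, with none, the one with the smallest p, and the 5 nearest genes to Mt1 and to Mt2. Others (Slc30a5, Trpm7, Mt4, Hmox1, Hspa1a, Hspa1b, Nup93, Bbs2, Gnao1, Slc30a7, Slc30a8, Slc39a12, Errfi1, Lmx1b, Col3a1, Pdgfra, Prrx1, Prrx2, Twist1, Tbx5, Meox2, Epcam, Wnt7a, Tfap2a and Gm45774) were chosen after their values were seen. Ftl1 and Cetp had no row by symbol. Relative depth came from the worth of 1 read at low genes, so no counting interval is given. Alternatives were another pseudocount, filter or scaling, covariates, failed estimates left out and single libraries left out. Coordinates are those of GENCODE M21 (GRCm38), whose identifiers matched 49109 of 49452 genes, and promoter windows those of RefSeq.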

Additional observations from a re-analysis of the deposited data

How the results depend on the processing

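The log2 fold changes of the tested members kept their direction under the 11 alternatives that could move them (another 4 or 5 each change only the error or the genes tested), with ranges of 1.34 to 1.54 for Mt1, 1.84 to 1.97 for Mt2, -1.23 to -0.99 for Slc30a4, -0.36 to -0.18 for Slc39a10, -0.28 to -0.04 for Mtf1, -0.26 to -0.10 for Slc30a1 and 0.05 to 0.21 for Slc39a6. The call of Slc39a14 held in all 15 alternatives that tested it. The number of all genes called was 829, and 342 with no filter (27766 genes tested), 545 with the first digit of sample names as a covariate, 316 to 642 with 1 replicate left out, 325 without wild-type embryo 1 and Sp8 null embryo 2, and 251 with the libraries named 5 alone, fits with fewer samples. The last 2 settings were chosen after seeing the data. The 2 other zinc carriers called became 0 with a mean of at least 5 FPKM, under which Slc39a11 and Slc39a14 were not tested, and 1 in every other alternative except leaving out failed estimates (with 1 replicate left out the range was 1 to 1). The 4 response genes called became 0 with no filter, 1 to 3 with 1 replicate left out, 0 without those 2 embryos and 1 with the libraries named 5. The 1 called neighbour became 0 with a mean of at least 5 FPKM, without those 2 embryos and with the libraries named 5, and 1 to 2 with 1 replicate left out. The 2 neighbours called without Sp8 null embryo 3 were 1 higher and 1 lower. Where no reason is given, the cause was not tested. With a replicate block the counts were 328 genes, 1 zinc carrier, 1 response gene and 1 neighbour. Same-numbered embryos did not deviate together (correlations -0.164, -0.145 and -0.0699), so the number does not pair them. Depth is relative only, so detection limits of the low genes are not known.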
